A study of Mus musculus with 4 samples.

Results

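RNA of CD8αβ+ intraepithelial lymphocytes (IELs) and CD8αβ+ splenocytes (SPLs) was compared for the enzymes and receptors that handle nucleotides, NAD and adenosine outside the cell. The genes were the ectoenzymes Entpd1, Nt5e, Ada, Cd38 and Art2b, the ATP-gated channels P2rx4 and P2rx7, and the adenosine receptors Adora2a and Adora2b. All probes that carry these gene names and are not controls were taken, which gave 15 of the 41174 probes and 9 of the 27376 gene names on the arrays. IELs came from small-intestinal epithelium and SPLs from spleen, both from wild-type male mice aged 8 to 12 weeks with no treatment given for either group. The mice were of the C57BL/6 strain, the gate was CD45+ CD3+ CD8α+ CD8β+ TCRβ+ for both groups, and the cells of each sample were pooled from several mice. There were 2 samples per group, each on its own 1-color Agilent array, and IEL replicate 1 shared slide 1 with SPL replicate 2, whereas IEL replicate 2 shared slide 2 with SPL replicate 1.

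ATP released from stressed or dying cells is a danger signal, which the membrane enzymes CD39 (Entpd1) and CD73 (Nt5e) convert stepwise to adenosine, and adenosine dampens T cell activation through the cAMP-raising receptors encoded by Adora2a and Adora2b. On mouse T cells the channel P2X7 opens either to ATP or, in the presence of NAD, after ADP-ribosylation by ART2.2 (Art2b), and sustained opening leads to shedding of surface molecules and cell death. CD38 consumes the NAD on which that second route depends.

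The levels below are log2 processed intensities relative to the 75th percentile of the array, so that 0 is the brightness of that percentile. Levels of different probes are not comparable with each other. All 8 CD8 T cell markers (Cd8a, Cd8b1, Cd3d, Cd3e, Cd3g, Cd2, Lck and Cd5) were well above background on all arrays, and their summed linear level was 612 and 669 times the 75th percentile in IEL replicates 1 and 2 and 673 and 654 times in SPL replicates 1 and 2. The IEL replicates stood apart from each other. Over 27912 tested probes the levels of IEL replicate 2 correlated at 0.992 with SPL replicate 1 and at 0.946 with IEL replicate 1, so the library labelled IEL replicate 2 was nearer to the spleen than to its own group. The summed level of 12 intestinal epithelial markers was 34.5 and 8.24 in the IEL replicates and 4.44 and 2.35 in the SPL replicates. That of 7 Paneth cell markers was 421 and 11.3 in the IELs and 7.61 and 5.31 in the SPLs. In SPL replicates 1 and 2 the epithelial sum was set mainly by Lgals4 (log2 levels 1.33 and 0.95) and the Paneth cell sum by Lyz1 (2.30 and 2.35). Krt8 (-1.99 and -4.64) and Defa1 (0.19 and -5.04) differed more between the SPL replicates, but Ang4 did not (-3.34 and -3.08). Unlike the epithelial and Paneth cell lists, 8 B cell markers summed to 3.63 and 20.95 in the IELs and to 26.8 and 20.4 in the SPLs, and 7 neutrophil markers summed to 0.224 and 35.8 against 44.4 and 50.01. Of the 7 neutrophil markers on the array, S100a8, Ngp, Camp, Ltf and Elane were not well above background in IEL replicate 1. The sum of 8 macrophage markers was between 35.7 and 48.4 on all arrays, but it was set by Lyz2. Of the others, Csf1r, C1qa, C1qb, C1qc, Emr1 and Cd14 were all lowest in IEL replicate 1, as with Csf1r at -4.87 there against -0.25 to 0.93 on the other arrays, and C1qa was not well above background there. In bulk RNA of this kind, a larger share of cells that carry a transcript and more of it per cell cannot be told apart.

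**Figure D1:**
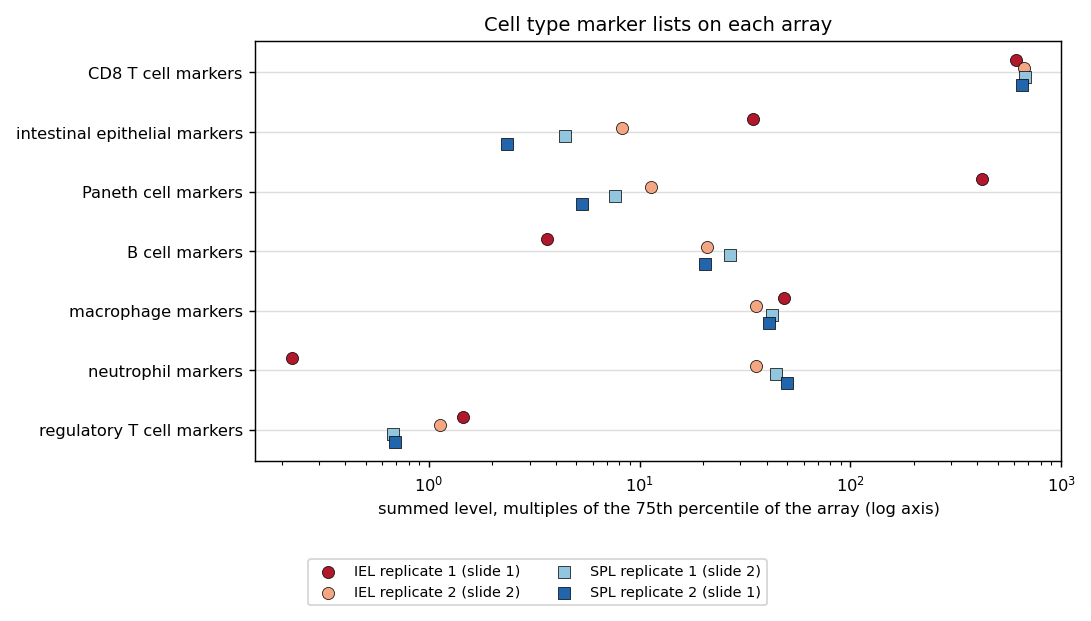
Summed linear levels of the marker lists on each of the 4 arrays, on a log axis in multiples of the 75th percentile of the array, with circles for IELs and squares for SPLs. The CD8 T cell list lies between 612 and 673 on all arrays, the epithelial list falls in steps from 34.5 to 2.35, and IEL replicate 1 alone is low in B cell and neutrophil markers.

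The sequences of 4 probes are shown because the results turn on them. Those of P2rx7, Cd38 and Nt5e have a listed position longer than their 60 bases (2886, 377 and 967 bases), as is the case for a probe split across an intron, and they give a reading for each gene beside that of its brighter probe. The Adora2a probe is the one that differed from the other probe of its gene. Positions are those of the array annotation on mm9, all on the plus strand, at chr5:123120528-123123413 for P2rx7, chr5:44298826-44299202 for Cd38, chr9:88264041-88265007 for Nt5e and chr10:74795972-74796031 for Adora2a.
P2rx7 A_51_P506733: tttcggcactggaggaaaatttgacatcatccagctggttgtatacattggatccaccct
Cd38 A_52_P168962: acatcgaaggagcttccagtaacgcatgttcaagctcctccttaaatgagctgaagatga
Nt5e A_51_P156740: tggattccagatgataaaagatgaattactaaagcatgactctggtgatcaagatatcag
Adora2a A_52_P240878: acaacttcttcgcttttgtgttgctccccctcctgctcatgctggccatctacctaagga
No run of 16 bases of any of the 15 probes occurred on the same strand in another probe of the array. P2rx7 and P2rx4 are neighbours on chromosome 5, with 0 protein-coding genes between them in RefSeq (GRCm38.p6) and with 43507 bases between their nearest probes on mm9.

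P2rx7 and Cd38 were the most strongly IEL-biased members, and Nt5e, Entpd1 and 1 of 2 Adora2a probes were about 2- to 3-fold higher in IELs by the group means. P2rx4, Ada and Art2b differed little. Their log2 fold changes were 0.09 and 0.41 for the P2rx4 probes, -0.36 for Ada and -0.45 for Art2b. For 9 of the 14 tested probes IEL replicate 1 was highest and SPL replicate 2 lowest, with IEL replicate 2 above SPL replicate 1. None of these differences passed the test over all probes. The sizes depend on the background correction. With normexp the brighter Entpd1, Nt5e and Cd38 probes differed by 0.41, 0.78 and 0.91 on the log2 scale, all less than 2-fold. The brighter P2rx7 probe kept 2.46, but the dimmer one fell from 2.56 to 0.75, also less than 2-fold. With limma and Benjamini-Hochberg adjustment over 27938 tested probes, 0 of the 14 tested member probes and 0 of all tested probes (0%) had an adjusted p below 0.05, and the lowest adjusted p of a member was 0.634. At an unadjusted limma p below 0.05, 5 member probes of 3 genes (P2rx7, Cd38 and Nt5e) were higher in IELs, as were 4.64% of all tested probes, and 1.1% of all tested probes were lower.

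**Figure D2:**
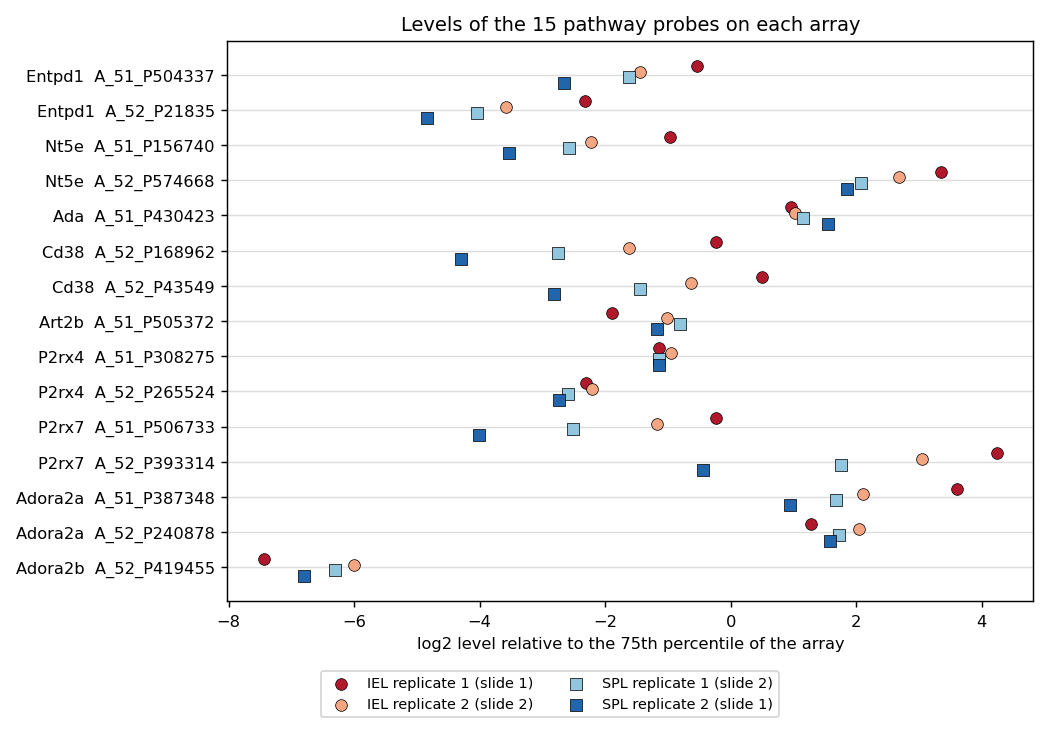
Log2 level of each of the 15 probes on the 4 arrays, relative to the 75th percentile of the array, with circles for IELs and squares for SPLs, set slightly apart vertically. For P2rx7, Cd38, Nt5e and Entpd1 both probes step down from IEL replicate 1 to SPL replicate 2, whereas the probes of Adora2a show different orders.

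Entpd1 encodes CD39, which removes phosphate from ATP and ADP to leave AMP. Its brighter probe had levels of -0.54 and -1.44 in IEL replicates 1 and 2 and of -1.62 and -2.65 in SPL replicates 1 and 2. Both IELs were above both SPLs, but IEL replicate 2 lay close to SPL replicate 1, and the fold change was 2.21 (log2 1.15, SE 0.52, 95% interval -0.24 to 2.53, limma adjusted p = 0.634). The difference was 4.33-fold on slide 1 and 1.13-fold on slide 2. The dimmer probe gave the same order, with -2.33 and -3.58 in IELs and -4.04 and -4.84 in SPLs, and a log2 fold change of 1.48 (SE 0.55). CD39 is also carried by regulatory T cells, which are mostly CD4+ and would fall outside the CD8αβ gate. Of 4 of their markers, Foxp3 differed little (log2 0.06) but was not well above background in IEL replicate 1, so its level there is no measured value. Nrp1 was lower in IELs (-2.04) and not well above background in either IEL replicate, and Il2ra and Ikzf2 were higher (1.40 and 0.96). Their sum, set mainly by Ikzf2, was 1.44 and 1.12 in the IEL replicates and 0.673 and 0.690 in the SPL replicates, and their part in the Entpd1 difference was not tested.

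Nt5e encodes CD73, which converts AMP to adenosine. The brighter probe had levels of 3.35 and 2.68 in the IEL replicates and of 2.07 and 1.85 in the SPL replicates. The groups did not overlap, and here the gap between IEL replicate 2 and the higher SPL array was of the size of the gap between the IEL replicates (SD 0.47 in IELs and 0.16 in SPLs). IELs were 2.07-fold higher (log2 1.05, SE 0.33, 95% interval 0.17 to 1.93, limma adjusted p = 0.634), with 2.82-fold on slide 1 and 1.52-fold on slide 2. The probe shown above had -0.97 and -2.22 in IELs and -2.58 and -3.53 in SPLs, a log2 fold change of 1.46 (SE 0.58).

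Ada encodes adenosine deaminase, which converts adenosine to inosine and so ends its action. Its level was 0.97 and 1.01 in the IEL replicates and 1.16 and 1.55 in the SPL replicates. It was the only one of the 8 tested members with both IELs below both SPLs, and its arrays stood in the exact reverse of the order of Entpd1 and Nt5e. The difference was small, with SPLs 1.28-fold higher (log2 -0.36, SE 0.26, 95% interval -1.06 to 0.34, limma adjusted p = 0.639) and with the SPL array higher by 1.498-fold on slide 1 and 1.102-fold on slide 2.

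Cd38 encodes an NAD glycohydrolase that also forms cyclic ADP-ribose. The brighter probe had levels of 0.50 and -0.63 in the IEL replicates and of -1.44 and -2.82 in the SPL replicates. The groups did not overlap, and the fold change was 4.19 (log2 2.07, SE 0.64, 95% interval 0.34 to 3.79, limma adjusted p = 0.634). The probe shown above had levels of -0.23 and -1.62 in IELs and of -2.75 and -4.31 in SPLs, for a 6.06-fold difference (log2 2.60, SE 0.74, 95% interval 0.61 to 4.59). By slide, that probe was 16.8-fold higher on slide 1 and 2.19-fold on slide 2, and the brighter probe 9.98-fold and 1.76-fold. CD38 is also carried by B cells and macrophages, whose markers are given above, and their part in the Cd38 levels was not tested.

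Art2b encodes ART2.2, the T cell ecto-enzyme that transfers ADP-ribose from NAD to P2X7 and other surface proteins. Its level was -1.89 and -1.01 in the IEL replicates and -0.82 and -1.18 in the SPL replicates. The groups overlapped, since IEL replicate 2 was above SPL replicate 2, and IEL replicate 1 was the lowest of the 4 arrays. SPLs were 1.37-fold higher by the means (log2 -0.45, SE 0.39, 95% interval -1.51 to 0.60, limma adjusted p = 0.672), with the SPL array higher by 1.63-fold on slide 1 and 1.15-fold on slide 2. In IEL replicate 1 the substrate channel P2rx7 was at its highest and the transferase at its lowest level of the 4 arrays. This is a single array, and a link between the levels was not tested. The close relative Art2a was on the array under the name Art2a-ps, but was not well above background on every array of either group, so it was not tested.

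P2rx7 showed the widest range of the members. The processed intensity of its brighter probe was 5889 and 3577 units in IEL replicates 1 and 2, 1627 units in SPL replicate 1 and 444 units in SPL replicate 2. After scaling, these were levels of 4.24 and 3.04 in IELs and of 1.76 and -0.45 in SPLs. The SPL replicates differed from each other more than the IEL replicates did (SD 1.56 against 0.85), and even the lower IEL array was above the higher SPL array. The fold change was 7.89 (log2 2.98, SE 0.88, 95% interval 0.61 to 5.35, limma adjusted p = 0.634), and it was 25.7-fold on slide 1 and 2.42-fold on slide 2. The probe shown above, from another stretch of the gene, had -0.24 and -1.18 in IELs and -2.51 and -4.02 in SPLs, for a 5.88-fold difference (log2 2.56, SE 0.64, 95% interval 0.84 to 4.28). Its slide differences were 13.7-fold and 2.52-fold, close to those of the brighter probe on slide 2.

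P2rx4, the neighbouring gene, encodes a channel of the same family that opens at lower ATP. The brighter probe had levels of -1.15 and -0.95 in the IEL replicates and of -1.14 and -1.14 in the SPL replicates. The groups overlapped and the log2 fold change was 0.09 (SE 0.23, 95% interval -0.54 to 0.72, limma adjusted p = 0.883). The other probe had -2.31 and -2.21 in IELs and -2.60 and -2.74 in SPLs, so that both IELs were above both SPLs by a narrow margin (1.33-fold, log2 0.41, SE 0.23). It was the steadiest member between slides, with 1.34-fold on slide 1 and 1.31-fold on slide 2. The upper ends of the intervals, 0.72 and 1.03 on the log2 scale, both lay below the fitted values of either P2rx7 probe. The P2rx7 intervals, however, began at 0.615 for the brighter and 0.835 for the dimmer probe. Only the intervals of the dimmer P2rx7 and the brighter P2rx4 probe did not overlap. A difference in fold change between P2rx7 and P2rx4 was not tested.

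Adora2a encodes the main adenosine receptor of T cells, and its probes gave different answers. The probe at chr10:74797351-74797411 had levels of 3.61 and 2.11 in the IEL replicates and of 1.67 and 0.95 in the SPL replicates, with both IELs above both SPLs. It was 2.93-fold higher in IELs (log2 1.55, SE 0.61, 95% interval -0.09 to 3.18, limma adjusted p = 0.634), with 6.33-fold on slide 1 and 1.35-fold on slide 2. The probe shown above, which lies 1319 bases upstream on the same strand, had levels of 1.27 and 2.04 in IELs and of 1.72 and 1.58 in SPLs. On that probe the IEL arrays were the lowest and the highest of the 4, and the log2 fold change was 0.01 (SE 0.35, 95% interval -0.92 to 0.94, limma adjusted p = 0.996). The log2 fold changes of the pair were 1.54 apart, whereas those of the other 5 members with 2 probes were between 0.32 and 0.53 apart. Adora2b, which encodes a receptor of lower affinity for adenosine, was not well above background on any of the 4 arrays, with processed intensities between 1.80 and 6.75 units, and was not tested.

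**Figure D3:**
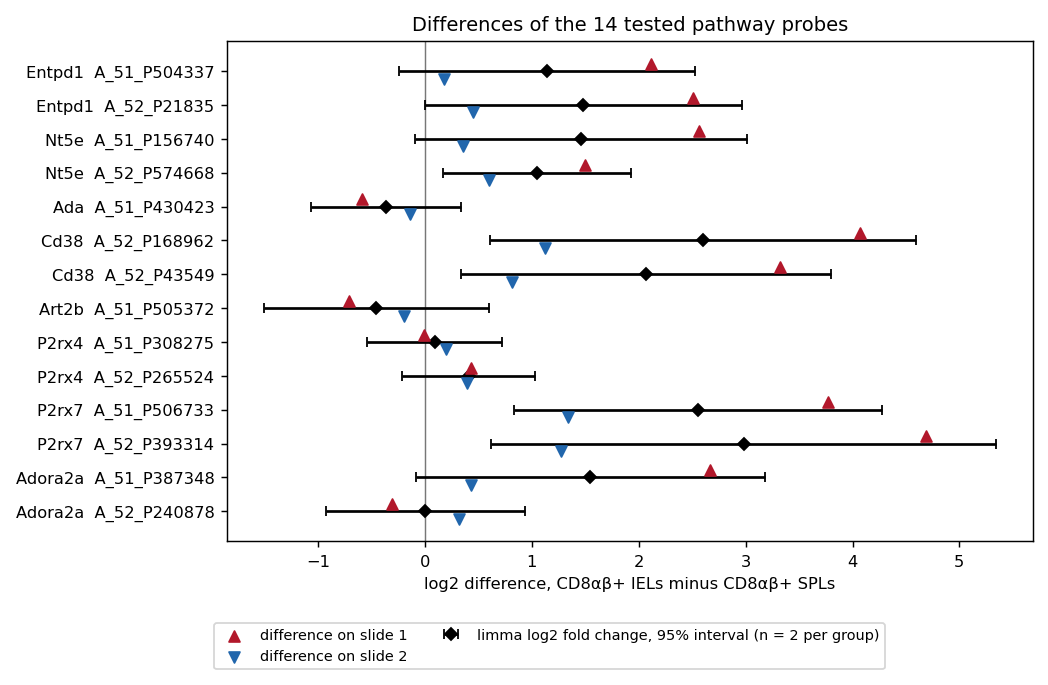
Log2 difference of IELs minus SPLs for the 14 tested probes, with diamonds for the limma fold change and bars for its 95% interval (n = 2 per group), and with triangles for the difference on each slide. The intervals of 5 probes, of P2rx7, Cd38 and Nt5e, lie above 0, and the slide 1 difference exceeds the slide 2 difference for all probes of P2rx7, Cd38, Nt5e and Entpd1.

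Of the 14 tested probes, 12 were higher and 2 were lower in IELs by the group means, and the median log2 fold change was 1.30, beside -0.0007 over all tested probes. Both IELs were above both SPLs for 10 probes (24.4% of all tested probes), both were below for 1 (24.5%), and 3 overlapped. Taking the brightest probe of each of the 8 tested genes, 5 genes were above, 1 was below and 2 overlapped, with a median log2 fold change of 1.097. This median was 0.70 when IEL replicate 1 was left out and 1.49 when IEL replicate 2 was. The brighter P2rx7 probe moved most with the SPLs, to 1.88 when SPL replicate 2 was left out and 4.09 when SPL replicate 1 was. Of the 6 genes with 2 tested probes, 4 (Entpd1, Nt5e, Cd38 and P2rx7) had non-overlapping groups on both. The share over all genes with 2 tested probes was not computed. Both probes of a gene read the same samples, so this count is a description only. The order IEL replicate 1, IEL replicate 2, SPL replicate 1, SPL replicate 2 was found for 9 probes (13.8% of all tested probes), and the reverse order for the Ada probe (14%). The summed epithelial and Paneth cell markers stood in that same order, and their part in the member differences was not tested.

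The difference varied between the slides. Each slide held a different IEL sample and a different SPL sample, so slide and sample cannot be told apart. The difference was larger in size on slide 1 than on slide 2 for 12 of the 14 probes, as for 80.8% of all tested probes. The median was 2.31 on slide 1 and 0.41 on slide 2 on the log2 scale, beside -0.005 and 0.002 over all tested probes. The IEL array exceeded the SPL array at least 2-fold for 9 probes on slide 1. It did so for 3 on slide 2, namely both P2rx7 probes and the Cd38 probe shown above, and all 3 were at least 2-fold higher on both slides, as were 1.79% of all tested probes. The share of all tested probes on each slide alone was not computed, so these counts are a description only. The IEL array was higher on both slides for 10 probes (35.8% of all tested probes) and lower on both for those of Ada and Art2b (35.9%).

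**Figure D4:**
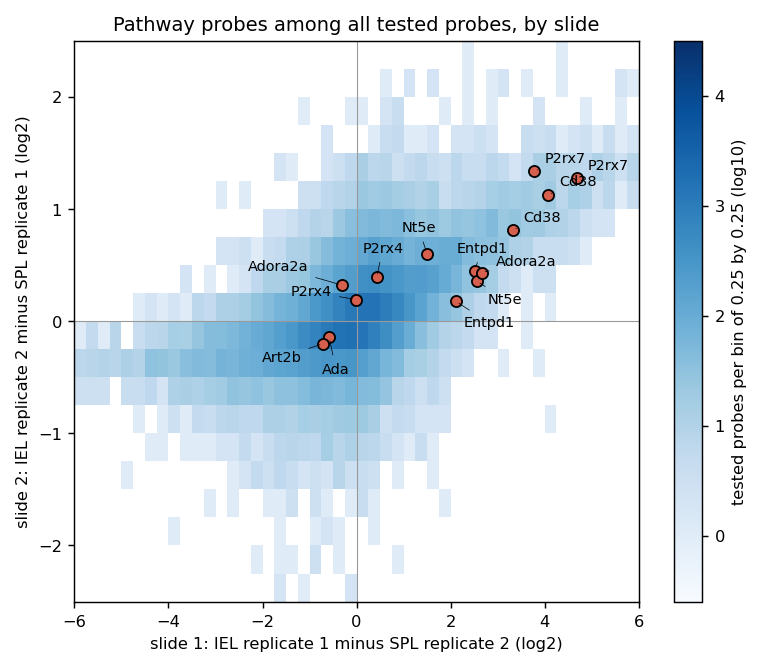
Log2 difference on slide 2 (vertical axis) against slide 1 (horizontal axis) for the 14 member probes, as labelled points, over the number of tested probes per bin (shading, log10), with 169 of 27912 probes outside the range shown. The axes have different scales, since differences on slide 1 are larger. P2rx7 and Cd38 lie at the upper right, and Ada and Art2b at the lower left of 0.

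Leaving out IEL replicate 2 changed the calls. The remaining IEL array then had no replicate, and limma gave it the spread of the SPL pair. In that fit 7 of the 14 member probes, of 5 genes (3 genes where the brightest probe alone is counted), were higher in IELs at an adjusted p below 0.05, among 8.55% of all tested probes called higher and 11% called lower. Those called were both probes of Cd38 (log2 2.63 and 3.30, limma adjusted p = 0.0449 and 0.0339) and both of Nt5e (log2 1.38 and 2.08, 0.0269 and 0.0398). The dimmer P2rx7 probe (log2 3.02, 0.0388), the dimmer Entpd1 probe (log2 2.11, 0.0290) and the more IEL-biased Adora2a probe (log2 2.30, 0.0211) were called as well. The brighter P2rx7 probe, with a log2 fold change of 3.58, was not (0.0581). With any of the other 3 arrays left out, 0 member genes were called.

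The other genes of nucleotide release, hydrolysis, sensing and uptake did not share a direction. Of 44 further genes, 43 were on the array and 32 were tested, with 0 at an adjusted p below 0.05 and 1 (Bst1) at an unadjusted limma p below 0.05. By the group means 15 were higher and 17 lower in IELs, 8 had both IELs above both SPLs (24.4% of all tested probes) and 15 had both below (24.5%), and the median log2 fold change was -0.16. This balance depended on the filter, since 6 of the 32 (P2ry1, P2ry2, P2ry6, P2ry12, P2ry13 and Alpl) were tested only because the SPLs were well above background, and a gene admitted in that way could hardly be other than lower in IELs. Of the 26 genes well above background on all arrays, 15 were higher and 11 lower, 8 had both IELs above and 10 both IELs below, and the median was 0.13.

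Among those with non-overlapping groups, the 5 with the highest fold change were P2rx3, Bst1, Enpp1, Slc28a3 and Adora3. Bst1, which encodes the CD38-related ecto-enzyme CD157, had levels of -1.32 and -2.71 in the IEL replicates and of -3.43 and -3.89 in the SPL replicates. It stood in the order of Cd38, with a log2 fold change of 1.65 (SE 0.54). Enpp1, a nucleotide pyrophosphatase that cleaves ATP to AMP, had 3.37 and 2.01 in IELs and 1.60 and 1.74 in SPLs (log2 1.02, SE 0.51). P2rx3, an ATP-gated channel known from sensory neurons, was high on 1 array only. Its level was 0.42 in IEL replicate 2 but -2.91 in IEL replicate 1, and -3.18 and -3.32 in the SPLs, so its log2 fold change of 2.01 (SE 1.15) rested on that array. The nucleoside transporter Slc28a3 (log2 0.69, SE 0.30) and the adenosine receptor gene Adora3 (log2 0.68, SE 0.28) were higher by less. Most of these probes are dim, and with normexp the log2 fold changes were 0.37 for Bst1, 0.74 for P2rx3, 0.11 for Slc28a3 and 0.12 for Adora3. With Adora1 (log2 0.52, SE 0.24), both remaining adenosine receptor genes had IELs above SPLs, and Adora1 differed by about the same on slide 1 (0.52) and slide 2 (0.51).

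Among those lower in IELs with non-overlapping groups, the 5 with the largest difference were P2ry6, P2ry12, Slc17a9, Alpl and Adk. P2Y receptors are G protein-coupled receptors for nucleotides, and of the 6 tested, 5 passed the filter through the SPLs only, so their common direction is not a result. P2ry14, a receptor gene for UDP-sugars, was the exception, with -5.35 and -3.84 in the IEL replicates and -3.81 and -2.96 in the SPL replicates (log2 -1.20, SE 0.63). Its probe is dim, and its log2 difference was -2.39 on slide 1 but only -0.023 on slide 2. P2ry6, a UDP receptor gene, had -7.12 and -3.30 in the IEL replicates and -2.74 and -3.15 in the SPL replicates (log2 -2.27, SE 1.32, and -0.19 with normexp). It was not well above background in IEL replicate 1, so the level there is no measured value, and on slide 2 the difference was -0.56. P2ry12, an ADP receptor gene, had -7.53 and -5.21 in IELs and -4.37 and -5.13 in SPLs (log2 -1.62, SE 0.86, and -0.077 with normexp), and was likewise not well above background in IEL replicate 1. P2ry1 and P2ry2 were not well above background in either IEL replicate. The B cell and neutrophil markers and 6 of the 8 macrophage markers were low on that same array, and their part in the P2Y differences was not tested.

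Slc17a9, the vesicular nucleotide transporter that loads ATP for release, had levels of 0.17 and 2.48 in the IEL replicates and of 2.87 and 2.70 in the SPL replicates (log2 -1.46, SE 0.82). Adk, the kinase that returns adenosine to AMP inside the cell, had -0.89 and 1.38 in IELs and 1.61 and 1.60 in SPLs (log2 -1.36, SE 0.80). Both were well above background on all arrays, and both differed mainly in IEL replicate 1. Alpl, tissue-nonspecific alkaline phosphatase, was near the limit of detection and not well above background in IEL replicate 1 (log2 -1.46, SE 0.83, and -0.067 with normexp). In IEL replicate 1, Ada and Adk, the enzymes that remove adenosine by deamination and by phosphorylation, were both at the lowest level of the 4 arrays, Ada only slightly below IEL replicate 2, whereas Nt5e was at its highest. These are levels of a single array, the one that stood apart in its cell type markers. A link between them was not tested.

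**Figure D5:**
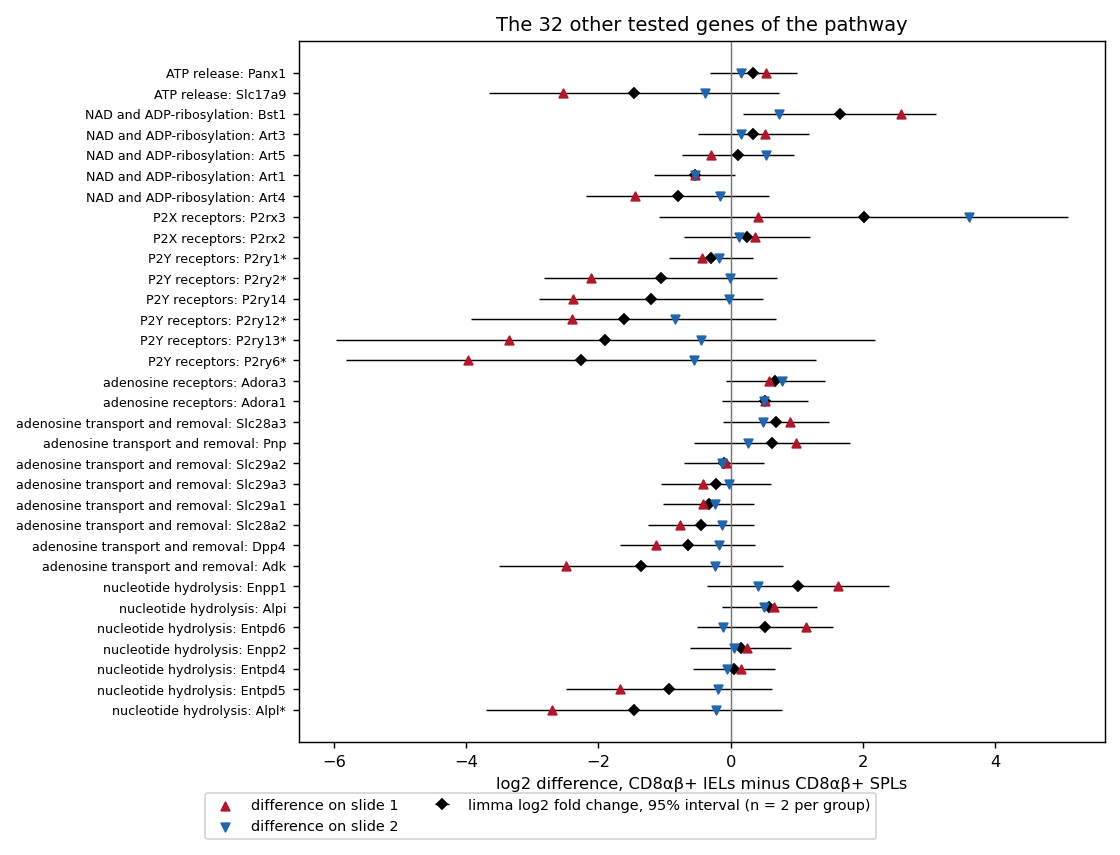
Log2 difference of IELs minus SPLs for the 32 other tested genes, grouped by role, with diamonds for the limma fold change, lines for its 95% interval (n = 2 per group) and triangles for each slide. An asterisk marks the 6 genes that were well above background in both SPL replicates but not in both IEL replicates, for which the plotted difference includes unmeasured IEL levels, and P2rx3 stands out by its slide 2 difference (3.61 against 0.42 on slide 1).

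The tested genes whose 4 levels ran most nearly parallel to those of a member were found by the root mean square difference of levels centred on their mean over the 4 arrays. For P2rx7 they were Mical2 (0.026 log2 units), Mras (0.047) and Chn2 (0.049). For Cd38 they were Slamf7 (0.023), Dkkl1 (0.031) and Kcnk1 (0.037), and for Nt5e P4htm (0.022), Ptprf (0.026) and Evi2a (0.032). Entpd1 was nearest to 1810010H24Rik (0.020), Eea1 (0.047) and Gcnt1 (0.067), and a second Eea1 probe was the nearest to the IEL-biased Adora2a probe (0.040). These values are a description over 4 arrays and were not tested.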

How the data were processed

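RNA was measured on 4 Agilent 1-color arrays, 2 per group. The authors deposited scanner files with a background-subtracted processed intensity per spot, written by Feature Extraction (10.7.3.1 in the file headers, 10.7.1.1 in the submitters' processing notes) and not normalized between arrays, and quantile-normalized log2 values of the same arrays, used here as an alternative. The study's methods name PrimeView chips, whereas the files are Agilent's. Here, log2 intensity minus the array's 75th percentile over 43379 spots that are not controls (312, 435, 479 and 605 units for IEL 1, IEL 2, SPL 1 and SPL 2) was used. Spots marked as outliers were left out and repeat spots averaged. No spot (0) was saturated. Between 63.6% and 69.6% of probes were well above background, and a probe was tested when it was so on every array of at least 1 group. The number of arrays limits the precision.

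Groups were compared with limma 3.58.1 (R 4.3.3, with the data.table package, version 1.17.8), without a block, two-sided, with 2 residual degrees of freedom and Benjamini-Hochberg adjustment over all tested probes. With 2 against 2 an exact permutation test cannot go below p = 0.33. A gene was represented by its tested probe with the highest mean level. All members were named, and of the other pathway genes those past the threshold or, with none, the 5 largest differences in each direction with non-overlapping groups. Adora1, P2ry14 and the counts of P2Y genes were added after their values were seen. The limma script was checked on simulated data. The members and gene lists were chosen with earlier results of these data known. Samples were not paired by replicate number. Over the probes, the difference between the IEL replicates correlated at -0.025 with that between the SPL replicates. With a single difference per group, this cannot exclude that same-numbered samples share an origin. The p-values measure the spread between these pooled samples only. Alternatives were other scalings (quantile, median), normexp with an offset of 50, the authors' log2 values, filters on dim probes, marked spots kept, an intensity trend, the mean of a gene's probes, the methods' unpaired test, replicate or slide as a block, and each sample left out. The normexp values were quantile-normalized after the correction. A normexp fit without spots more than 20 units below local background was chosen after seeing the data.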

Additional observations from a re-analysis of the deposited data

How the results depend on the processing

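With each sample left out in turn, the number of member genes called by their brightest probe ranged from 0 to 3, of other pathway genes from 0 to 13, and of all tested probes from 0 to 2390 higher and from 0 to 3066 lower in IELs. The upper values were all without IEL replicate 2, and the other fits called 0. Under every other alternative, 0 members, 0 other pathway genes and 0 of all tested probes were called. P2rx7, Cd38, Nt5e, Entpd1, the IEL-biased Adora2a probe, Ada and Art2b kept their direction under all alternatives. Normexp gave smaller differences for dim probes, and the members' median log2 fold change was 0.59 (0.82 without the spots far below local background) against 1.097. The brighter and dimmer probes gave 0.41 and 0.22 for Entpd1, 0.78 and 0.38 for Nt5e, 0.91 and 0.74 for Cd38, and 2.46 and 0.75 for P2rx7. With a sample left out, the members' median ranged from 0.70 to 1.49, the brighter Entpd1 probe from 0.63 to 1.66 and the IEL-biased Adora2a probe from 0.80 to 2.30.

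The Adora2a probe without a group difference changed sign under median scaling (-0.049), normexp (-0.15), normexp without spots far below background (-0.18) and the authors' values (-0.0027), and ranged from -0.38 to 0.39 with a sample left out. The brighter P2rx4 probe ranged from -0.010 to 0.19. The median of the other pathway genes was 0.13 for probes well above background on all arrays and ranged from -0.26 to 0.011 with a sample left out. Without a filter the median of all probes moved to 0.15. The cause of these sign changes was not tested. A block leaves the fold changes of this balanced design as they are. With the replicate number as a block, the lowest adjusted p of a member was 0.205 (both P2rx7 probes and the dimmer Cd38 probe) and 0 were called, and with the slide as a block it was 0.597 and 0 were called. The unpaired test of the methods gave 470 probes higher and 349 lower at their threshold and 0 after Benjamini-Hochberg adjustment.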
